A study of Mus musculus with 2 samples.

Results

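The genes described here were 6 lipases and 1 amylase of the mouse tongue, *Lipf*, *Lipa*, *Lipk*, *Lipm*, *Lipn*, *Liph* and *Amy1*, which made up 7 of the 18498 rows of an RPKM table (read density per kilobase of exon model, scaled to the mapped reads of the library). They were taken by gene symbol, and the set was selected on the RPKM values of the same table, because *Lipf* and *Amy1* were far higher in one library, so their tissue differences are a description and carry no test. The table compared circumvallate papillae (CvP), the taste bud-bearing papillae at the back of the tongue, with tongue epithelium labelled as being without papillae (Epi). Each tissue was 1 library of poly(A)+ RNA pooled from 20 or more male C57BL/6J mice, 12 to 30 weeks old and fed normal chow. The labels name no allele or treatment for either pool. In the RT-PCR work of the same study the CvP sample took in epithelium around the taste buds, and whether the sequenced CvP sample did so is not given in the sources used here. With no replicate of either tissue, every interval below is a 95% exact interval for counting error alone, from reads estimated with the listed gene length, and the spread between mice was not measured.

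Lipases free fatty acids from triglycerides. The acid lipase family works at low pH without colipase: lingual lipase, encoded by *Lipf*, is secreted in rodents by the von Ebner glands, serous glands that lie under the CvP and drain into its trenches, and starts fat digestion before the intestine. Lysosomal acid lipase, encoded by *Lipa*, acts inside nearly every cell, whereas *Lipk*, *Lipm* and *Lipn* are known from differentiating keratinocytes of the epidermis. *Liph* belongs to the separate pancreatic lipase family and encodes a membrane-associated phospholipase that makes lysophosphatidic acid, a lipid needed for hair growth. *Amy1* encodes salivary alpha-amylase, a product of serous acinar cells that splits starch.

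The libraries held an estimated 28421000 mapped reads for the CvP and 27960200 for the Epi, so 3 reads on a 1-kb exon model, the floor used here for a value of 0, were worth about 0.1 RPKM. The median CvP/Epi ratio of the 10363 rows that reached an RPKM of 1 in both libraries was 1.31, and ratios below are as deposited. Markers of the labelled tissues were as follows. Of 12 taste cell genes, 11 were more than 3-fold higher in the CvP. Of all rows that reached an RPKM of 1 in either library, 15.9% were. Of the 11 taste cell genes, 10 reached that RPKM only in the CvP. *Gnat3* read 127 RPKM against 0.03, *Plcb2* 70.0 against 0.12, *Entpd2* 54.8 against 4.53 and *Tas1r3* 25.3 against 0.70. The exception was *Itpr3*, 30.1 against 21.9. The mucosal keratins *Krt13* and *Krt4* led the Epi at 47815 and 22406 RPKM, against 17549 and 11801 in the CvP. *Tchh*, *Krt84* and *Krt36*, a trichohyalin and hard keratins known from filiform papillae, read 1156, 396 and 250 RPKM in the Epi, although its label excludes papillae, and 5.06, 2.88 and 1.88 in the CvP.

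*Lipf* lies on chromosome 19 (chr19:34035738-34051303, plus strand, mm9) at one end of a row of acid lipase genes. It had an RPKM of 1.96 in the CvP (estimated 75 reads) against 313 in the Epi (estimated 11857 reads). The lingual lipase signal was thus in the epithelium library rather than in that of the papilla into which the von Ebner glands drain. The Epi/CvP ratio was 160 (128 to 204). Among the 4327 rows with an Epi RPKM of at least 10, only 5 had a lower CvP/Epi ratio than *Lipf*, and 4 of these had an estimated 1 or 2 reads in the CvP. In order of level, *Lipf* stood at place 150 of all rows in the Epi and at place 10992 in the CvP.

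*Amy1* (chr3:113258870-113280668, minus strand, mm9) read 0.85 RPKM in the CvP (estimated 44 reads) against 80.5 in the Epi (estimated 4100 reads). The salivary amylase gene therefore had the same direction as *Lipf*, with an Epi/CvP ratio of 94.7 (70.4 to 131), an interval that overlaps that of *Lipf*. It was number 12 from the lowest of the 4327 rows ranked by CvP/Epi ratio. *Lipf* read 3.89 times *Amy1* in the Epi and 2.31 times in the CvP, on the listed lengths. Of the 1911 windows of 75 bases, the read length, in the longest coding transcript of *Amy1* in GENCODE M1, 10.4% also occurred with at most 2 mismatches in transcripts of the 5 pancreatic amylase genes *Amy2a1* to *Amy2a5*, so part of its reads could not be assigned by sequence alone. In the chromosome 3 span of the amylase genes and *Rnpc3*, the only rows were those of *Amy1* and *Rnpc3*. No row of a pancreatic amylase gene was found there. In GENCODE M1 the span of *Amy1* overlaps that of *Rnpc3* on the same strand by 1633 bases. The 2 rows as listed do not overlap, since that of *Amy1* ends at 113280668 and that of *Rnpc3* starts at 113307985. *Rnpc3* read 5.10 RPKM in the CvP against 3.05 in the Epi, opposite in direction to *Amy1*.

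**Figure D1:**
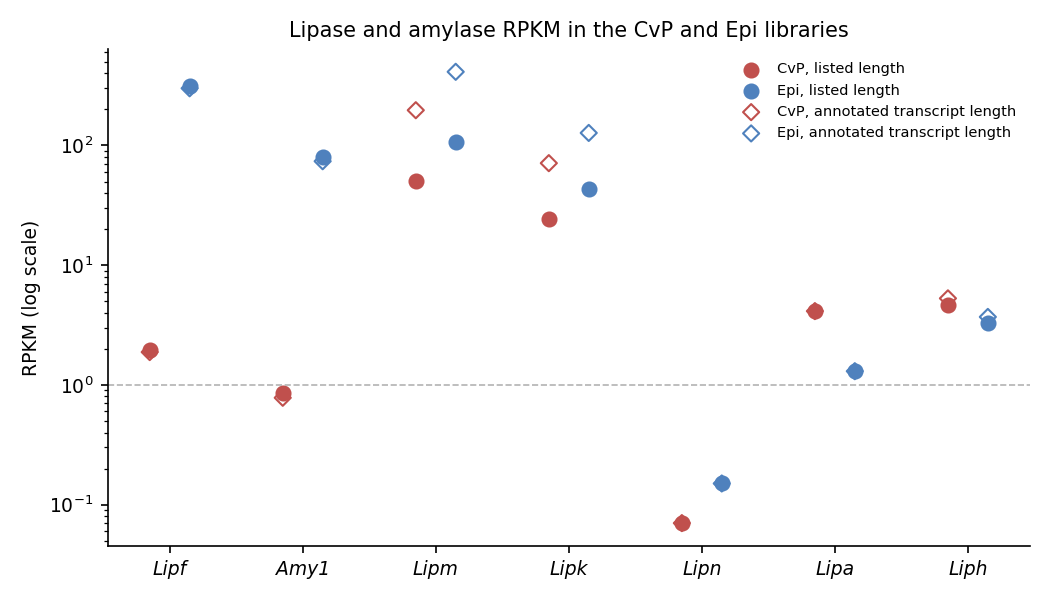
RPKM on a log scale of the 7 genes in the CvP library (red) and the Epi library (blue), 1 library each, with filled circles for the length listed in the table and open diamonds for the length of the longest annotated coding transcript; the dashed line marks an RPKM of 1. *Lipf* and *Amy1* sit at 1.96 and 0.85 in the CvP and at 313 and 80.5 in the Epi, whereas *Lipm* and *Lipk* are high in both libraries and shift upwards with the annotated length.

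The keratinocyte lipases *Lipm* and *Lipk* were detected in both tissues. *Lipm* (chr19:34175433-34197177, plus strand), an acid lipase known from the granular layer of the epidermis, had an RPKM of 50.8 in the CvP against 106 in the Epi. *Lipk* (chr19:34082744-34122393, plus strand) had an RPKM of 24.2 in the CvP against 43.3 in the Epi. Both were thus higher in the Epi, by 2.09-fold (2.05 to 2.13) for *Lipm* and 1.79-fold (1.72 to 1.86) for *Lipk*, and neither passed 3-fold. Their levels kept a similar proportion in both tissues, since *Lipm* read 2.10 times *Lipk* in the CvP and 2.46 times in the Epi.

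Levels between these genes depend on the gene length that the table lists. The listed exon model of *Lipm*, 10.5 kb, is 3.88 times its longest annotated coding transcript, and that of *Lipk*, 6.17 kb, is 2.94 times, while the listed lengths of the other 5 genes were within 0.918 to 1.13 times the annotated ones. If the same reads are divided by the annotated length, the Epi RPKM of *Lipm* becomes 413, above the 301 of *Lipf*, and that of *Lipk* becomes 127, above the 73.9 of *Amy1*. The order of *Lipf* and *Lipm* in the Epi therefore turns with the length used. The CvP/Epi ratio of a gene does not depend on it, but its counting interval does. With reads estimated from the shorter length, the Epi/CvP interval was 2.01 to 2.18 for *Lipm* and 1.68 to 1.91 for *Lipk*.

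*Lipn* (chr19:34141848-34159408, plus strand), another epidermal acid lipase, lies between *Lipk* and *Lipm* but was close to the limit of detection. It had an RPKM of 0.07 in the CvP (estimated 3 reads) against 0.15 in the Epi (estimated 6 reads). The CvP/Epi ratio of 0.467 (0.0796 to 2.30) gives no order between the tissues, and *Lipn* was the only one of the 7 genes below 1 RPKM in both libraries.

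*Lipa* (chr19:34566806-34601964, minus strand) had the opposite direction to *Lipf*, *Lipk* and *Lipm*, with an RPKM of 4.13 in the CvP (estimated 349 reads) against 1.30 in the Epi (estimated 108 reads). The ratio was 3.18 (2.55 to 3.98), and its interval includes 3. Divided by the median ratio of 1.31, it was 2.42.

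*Liph* (chr16:21953891-21995615, minus strand) had an RPKM of 4.66 in the CvP (estimated 569 reads) against 3.26 in the Epi (estimated 392 reads). Its ratio of 1.43 (1.25 to 1.63) lay close to the median ratio of all rows, which is inside the interval.

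The order of levels in the CvP was *Lipm*, *Lipk*, *Liph*, *Lipa*, *Lipf*, *Amy1* and *Lipn*. On the listed lengths, *Liph* (4.28 to 5.06) and *Lipa* (3.71 to 4.59) had overlapping counting intervals there, and no other neighbours did. In the Epi the order on the listed lengths was *Lipf*, *Lipm*, *Amy1*, *Lipk*, *Liph*, *Lipa* and *Lipn*, with no overlap between neighbours. *Lipf* thus stood at place 5 of the 7 in the CvP and at place 1 in the Epi, or at place 2 there on the annotated lengths.

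Of the 6 members that reached an RPKM of 1 in one library or both, 2 (*Lipf* and *Amy1*) were more than 3-fold higher in the Epi and 1 (*Lipa*) was more than 3-fold higher in the CvP. Of all 12549 rows past the same filter, 1.96% were more than 3-fold higher in the Epi, 0.669% were more than 10-fold higher there, and 15.9% were more than 3-fold higher in the CvP. *Amy1* passed the filter only through the Epi. Since the members were chosen by these values, no reading is made of their share.

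**Figure D2:**
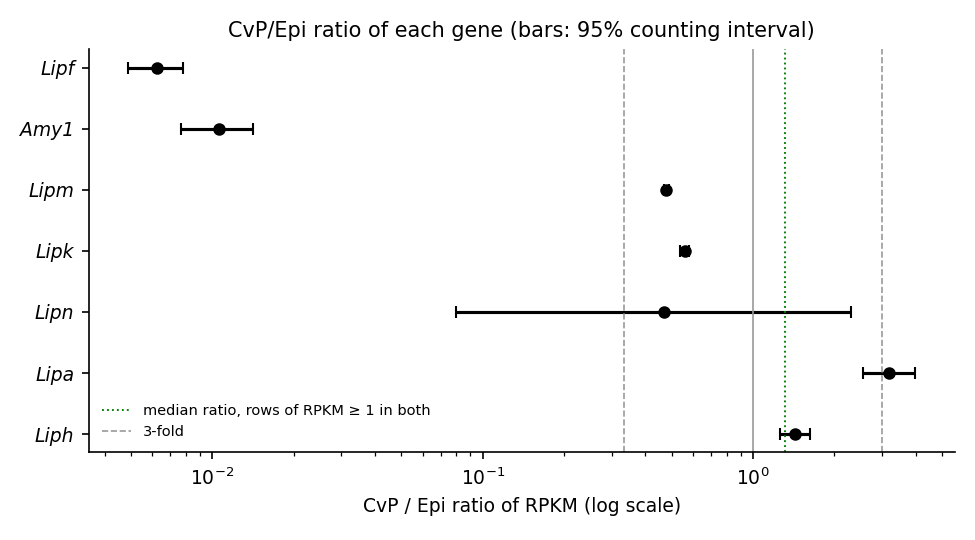
CvP/Epi ratio of RPKM (log scale) for each gene, 1 library per tissue; points are ratios, bars are 95% exact binomial intervals for counting error, dashed lines mark 3-fold in either direction and the dotted line the median ratio of 1.31. *Lipf* (0.00625) and *Amy1* (0.0106) stand apart from the other 5 genes, which lie between 0.467 and 3.18.

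The genes from *Lipf* to *Lipm* follow each other on one strand of chromosome 19. *Lipf* is separated from *Lipk* by 31440 bases, *Lipk* from *Lipn* by 19454 bases and *Lipn* from *Lipm* by 16024 bases, and *Lipa* lies on the other strand, 531 to 566 kb from the start of *Lipf*. Neighbouring lipase genes thus differed in the Epi from 313 RPKM for *Lipf* to 0.15 for *Lipn*. The reading frames are related: the coding sequence of *Lipf* shared 66.8% of aligned bases with *Lipk*, 64.6% with *Lipm*, 62.7% with *Lipn* and 61.2% with *Lipa*. None of the 75-base windows of *Lipf*, *Lipk*, *Lipn*, *Lipa* or *Liph* occurred with at most 2 mismatches in a coding transcript of another gene. For *Lipm* 2.47% of windows did, all in *Ankrd22*, whose row overlaps that of *Lipm* by 139 bases on the opposite strand.

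Of the 5 non-lipase rows between *Lipf* and *Lipa*, *Ankrd22* had an RPKM of 20.7 in the CvP against 19.7 in the Epi, a ratio of 1.05 (0.996 to 1.11). *Stambpl1*, *Acta2* and *Ch25h* read at most 3.01 in either library. *Fas*, a death receptor gene, read 1.16 in the CvP against 0.1 in the Epi, the highest CvP/Epi ratio of the span at 11.6 (4.70 to 37.1). Apart from *Lipf*, no row of the span was more than 3-fold higher in the Epi.

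**Figure D3:**
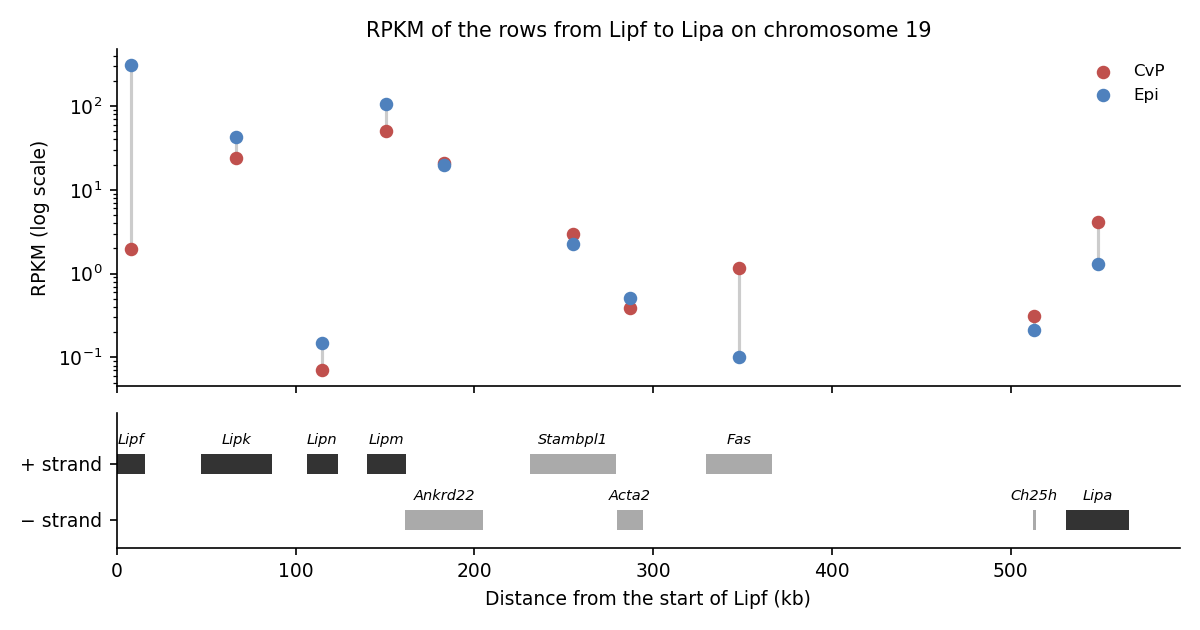
RPKM on a log scale of the 10 rows from *Lipf* to *Lipa* on chromosome 19 (upper panel; red, CvP; blue, Epi; 1 library each, listed lengths) above the position and strand of each row in kb from the start of *Lipf* (lower panel; lipases in dark grey). The gap between libraries is widest for *Lipf* (1.96 and 313), while *Lipn*, between *Lipk* and *Lipm*, is at 0.07 and 0.15.

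The lipases share the active-site serine within a motif of glycine, any residue, serine, any residue and glycine. To show how alike the family is where it is most conserved, the 45 coding bases around it in the longest transcript of each gene in GENCODE M1 (mm9) are printed 5′ to 3′ with the 5 codons of the motif in capitals. In the 5 acid lipases the stretch is spliced from exons 5 and 6 of 10, so the coordinates span an intron, and in *Liph* it lies within exon 3 of 10.
Lipf (chr19:34041372-34043207): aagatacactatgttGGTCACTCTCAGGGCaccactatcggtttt
Lipa (chr19:34581631-34583518): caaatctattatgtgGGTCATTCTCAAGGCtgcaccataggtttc
Lipk (chr19:34096967-34106722): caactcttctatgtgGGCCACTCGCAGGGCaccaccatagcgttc
Lipm (chr19:34187445-34190620): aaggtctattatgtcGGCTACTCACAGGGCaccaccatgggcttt
Lipn (chr19:34148077-34151399): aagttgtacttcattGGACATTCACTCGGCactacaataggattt
Liph (chr16:21981452-21981496): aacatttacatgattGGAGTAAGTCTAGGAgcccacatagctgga
Of these 45 bases *Lipm* shared 34 with *Lipf*, *Lipa* 32, *Lipk* 31 and *Lipn* 30, whereas *Liph*, of the other family, shared 20. The 4 other acid lipases thus fell within a narrow range here, the keratinocyte genes together with the lysosomal one.

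Promoter sequence was read from RefSeq for 6 of the 7 genes (GRCm38.p6, not the build of the table); *Lipk* had no entry. The 250 bases before the start are printed for *Lipf* and *Amy1*, the genes with the large Epi excess, and for *Lipm* and *Lipa* as the keratinocyte and the lysosomal gene. The TATA-like TATANA and the GC box GGGCGG were searched on both strands in windows reaching 50 bases past the start, and matches are in capitals. *Amy1* has 2 annotated starts.
Lipf (chr19:33960998-33961247, plus strand): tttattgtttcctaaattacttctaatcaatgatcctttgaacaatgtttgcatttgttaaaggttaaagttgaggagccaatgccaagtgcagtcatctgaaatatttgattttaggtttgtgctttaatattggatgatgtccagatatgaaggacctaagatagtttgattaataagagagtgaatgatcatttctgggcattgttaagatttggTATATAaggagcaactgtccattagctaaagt
Amy1 upstream start (chr3:113577751-113578000, minus strand): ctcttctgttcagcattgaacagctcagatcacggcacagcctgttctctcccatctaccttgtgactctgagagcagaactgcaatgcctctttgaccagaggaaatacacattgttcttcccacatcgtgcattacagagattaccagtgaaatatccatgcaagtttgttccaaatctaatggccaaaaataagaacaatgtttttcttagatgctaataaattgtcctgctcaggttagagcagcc
Amy1 downstream start (chr3:113574763-113575012, minus strand): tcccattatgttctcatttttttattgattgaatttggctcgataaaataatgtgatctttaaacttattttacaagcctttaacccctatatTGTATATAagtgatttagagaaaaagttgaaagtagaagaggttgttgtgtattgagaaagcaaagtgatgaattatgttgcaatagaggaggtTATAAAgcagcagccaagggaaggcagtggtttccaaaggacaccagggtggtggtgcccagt
Lipm (chr19:34100693-34100942, plus strand): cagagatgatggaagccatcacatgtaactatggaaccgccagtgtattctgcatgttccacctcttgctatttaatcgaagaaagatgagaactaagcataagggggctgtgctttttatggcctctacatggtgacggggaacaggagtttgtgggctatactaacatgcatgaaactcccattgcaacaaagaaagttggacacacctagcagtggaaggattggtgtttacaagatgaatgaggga
Lipa (chr19:34527475-34527724, minus strand): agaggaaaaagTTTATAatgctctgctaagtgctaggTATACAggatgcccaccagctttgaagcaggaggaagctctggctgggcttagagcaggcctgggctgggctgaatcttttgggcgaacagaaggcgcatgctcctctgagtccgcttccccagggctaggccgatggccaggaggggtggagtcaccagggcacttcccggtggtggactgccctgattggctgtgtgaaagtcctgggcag
The *Lipf* promoter holds 1 TATANA match, a palindrome read on both strands, 32 bases before the start. A match on the gene strand that begins 40 to 20 bases before the start occurs in 3.11% of all 32851 promoter windows. At the downstream start of *Amy1* the matches lie 63 bases and, overlapping each other, 155 to 157 bases before the start, and the upstream start has none. TATANA occurs anywhere in 24.7% of promoter windows and GGGCGG in 35.7%. GGGCGG was found in *Lipa*, 10 bases past the start and so outside the printed stretch, and in *Liph*, but not in the windows of *Lipf*, *Amy1*, *Lipm* or *Lipn*. The *Lipf* window had 34.3% G and C, below the 36.3% that marks the lowest 5% of all promoter windows, and no CG pair. The window of *Lipa* had 59.3%, against a median of 52.7% over all windows. These letters describe the windows and do not show which start was used in either tissue.

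The members were then set beside lists of other genes, chosen with earlier results of these data known. The list nearest in role to *Lipf* and *Amy1* held secreted products and markers of salivary and von Ebner glands, of which 21 of 33 had a row. Of these 21 rows, 14 read higher in the Epi, 6 in the CvP and 1 equal, and their median log2 ratio, on log2(RPKM + 0.1), was -1.05, beside 0.49 over all 18498 rows. The CvP sum of the 21 rows was 25.0 RPKM and the Epi sum 265. An RPKM of 1 in one library or both was reached by 13, of which 9 were more than 3-fold higher in the Epi and 2 in the CvP, with a median of -4.04 beside 0.50 over all rows past the filter. The filter favours such differences, since 7 of the 9 passed only through the Epi and both of the others only through the CvP. Of all rows past the filter, 1.96% were more than 3-fold higher in the Epi and 15.9% in the CvP. Without the 3 rows of the list with the highest Epi RPKM, the median over the remaining 18 rows was -0.68.

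*Bpifb1*, a secreted protein of lingual and airway glands listed under its older name U46068, read 1.21 in the CvP against 185 in the Epi, giving an Epi/CvP ratio of 153 (120 to 198). *Bpifa2*, the parotid secretory protein, read 0.07 in the CvP, an estimated 2 reads, and 27.2 in the Epi, which gives an Epi/CvP ratio of 388 (102 to 3069). *Tff2*, a trefoil peptide secreted with mucus, read 0.55 and 10.6. *Bpifb1*, *Bpifa2* and *Tff2* were thus low in the CvP and higher in the Epi, as *Lipf* and *Amy1* were. *Dcpp1*, one of the demilune cell and parotid proteins, whose gene copies are so alike that reads may be split between them, had the same direction. It was at 0 reads in the CvP and 7.84 RPKM in the Epi, at least 45.8-fold higher against a floor of 3 reads in the CvP library. Some secreted products of the list, *Dnase1* and *Lpo* among them, did not have it.

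Not all gland genes had that direction. *Pigr*, the receptor that carries immunoglobulin A into secretions, read 12.0 in the CvP against 0.54 in the Epi, and *Aqp5*, the water channel of serous acini, read 6.09 and 0.69. The secreted enzyme gene *Dnase1* read 1.29 in the CvP and 0.66 in the Epi. *Lpo*, also of a secreted enzyme, read 0.45 and 0.01, an estimated 37 and 1 reads. The 2 gland mucins of the list differed from each other: *Muc5b* read 1.38 and 7.12, and *Muc19* 1.32 and 1.31. Of the genes that define serous acini, *Bhlha15*, a transcription factor of secretory cells, was at 0.17 and 0.14 RPKM and *Car6*, the secreted carbonic anhydrase, was at 0 and 0.06. On the log2(RPKM + 0.1) scale, 1 of the 13 gland rows past the filter, *Bpifa2*, had a lower ratio than *Lipf*, and *Bpifa2* and *Bpifb1* had a lower one than *Amy1*. Since these are bulk samples, the cells that gave the *Lipf* and *Amy1* RNA are not shown. A different number of cells and a different amount of RNA per cell cannot be told apart either.

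Enzymes of the exocrine pancreas and stomach were near 0. Of 16 listed genes 10 had a row, none reached an RPKM of 1, and they summed to 1.36 RPKM in the CvP against 0.27 in the Epi. Their highest value in either library was 0.45, of *Atp4a*, the stomach proton pump, in the CvP against 0.02 in the Epi. The elastases *Cela1* and *Cela2a* read 0.32 and 0.27 in the CvP against 0 and 0.04, the chymotrypsin-like *Ctrl* read 0.16 and 0.12, and *Gkn1*, a stomach mucosal protein, read 0.03 and 0.06. *Prss2*, a trypsinogen, and *Pgc*, a pepsinogen, were at 0 in both libraries.

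Skeletal muscle genes were also higher in the Epi. All 10 listed genes had a row, none at 0 in either library, and they summed to 7.78 RPKM in the CvP against 68.8 in the Epi. *Acta1*, skeletal muscle actin, read 0.86 and 12.9, *Ckm*, muscle creatine kinase, 0.67 and 10.6, *Tnni2*, fast troponin I, 2.53 and 12.3, and *Mylpf*, a fast myosin light chain, 1.63 and 7.12. The 8 that passed the filter were more than 3-fold higher in the Epi, beside 1.96% of all rows past it. However, 6 of the 8 passed only through the Epi, and *Myh2*, a fast myosin heavy chain that did not pass, read 0.09 and 0.11. Adipocyte genes were at or near 0 in both libraries apart from *Fabp4*, a fatty acid-binding protein, at 0.17 and 3.24. *Adipoq*, *Plin1*, *Cfd*, *Cidec* and *Retn* were at 0 in the CvP and at 0.02 to 0.07 in the Epi, an estimated 1 or 2 reads each, and *Lep* read 0.04 and 0. The part of muscle RNA in the values of *Lipf* and *Amy1* was not tested.

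The differences of *Lipm* and *Lipk* were of a size also seen in the keratinocyte lists. Of 28 suprabasal keratinocyte and cornified envelope genes with a row, 26 passed the filter, all through both libraries, 24 of them higher in the Epi, 9 by more than 3-fold, and none was more than 3-fold higher in the CvP. Of all rows past the filter, 21.8% were higher in the Epi, 1.96% by more than 3-fold. More than 3-fold higher in the CvP were 15.9%. The median log2 ratio was -0.99. *Krtdap*, a keratinocyte differentiation protein, read 2458 in the CvP against 3728 in the Epi, and *Krt76*, a keratin of the oral mucosa, read 217 and 5649. Of 23 enzymes of epidermal barrier lipids, 22 passed, 20 of them higher in the Epi but none by more than 3-fold, and 2 more than 3-fold higher in the CvP, with a median of -0.66. On that scale *Lipm* was at -1.06 and *Lipk* at -0.84. Among the barrier lipid enzymes 5 had a lower ratio than *Lipm* and 8 a lower one than *Lipk*, so both lay inside the list. *Lipf*, at -7.25, lay below all 22 barrier lipid enzymes and below all but 1 of the 26 suprabasal genes, *Tchh*. *Amy1*, at -6.41, stood likewise.

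*Alox12b*, the lipoxygenase that starts the oxidation of barrier ceramides, read 205 in the CvP against 353 in the Epi. *Elovl4*, which lengthens fatty acids for ceramides, read 141 and 209, and *Dgat2*, which makes triglycerides, read 90.9 and 216. *Pnpla1*, a patatin-like enzyme of acylceramide synthesis, read 11.2 and 30.4, and *Abhd5*, the cofactor that activates triglyceride lipases, read 24.5 and 34.6; *Pnpla1* and *Abhd5* also stand in the list of other lipases. Their 1.41 to 2.71-fold Epi excess spans the 1.79 and 2.09-fold of *Lipk* and *Lipm*. Of the 9 basal keratinocyte genes, 7 (77.8%) were higher in the CvP, near the 78.1% of all rows past the filter, and the median was 0.65 beside 0.50. The basal keratins were unlike each other: *Krt5* read 1506 in the CvP against 1271 in the Epi, *Krt15* read 497 and 784, and *Krt14* read 295 and 1140, the largest difference of the list at 3.87-fold.

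**Figure D4:**
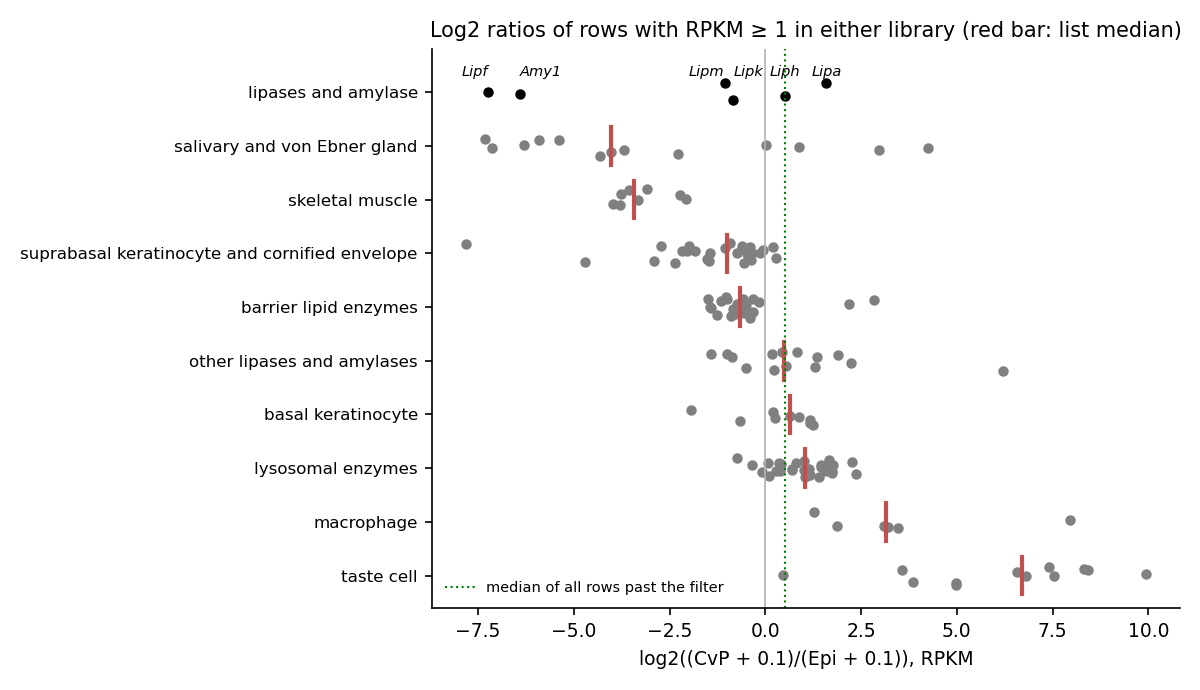
Log2 ratio of (CvP + 0.1) over (Epi + 0.1) RPKM for the 6 genes that reached an RPKM of 1 in one library or both (black, top line) and for 9 lists (grey points, same filter); red bars are list medians, the dotted line the median of all rows (0.50), and points are spread vertically for sight only. *Lipf* (-7.25) and *Amy1* (-6.41) lie at the low end of the gland list, *Lipm* (-1.06) and *Lipk* (-0.84) amid the barrier lipid enzymes, and *Lipa* (1.60) among the lysosomal enzymes.

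*Lipa* was set beside 29 lysosomal genes, all of which passed the filter. Of these, 26 (89.7%, beside 78.1% of all rows past the filter) were higher in the CvP, 8 (27.6%, beside 15.9%) by more than 3-fold, and none was more than 3-fold higher in the Epi, with a median log2 ratio of 1.04 beside 0.50. *Lipa*, at 1.60, had a higher ratio than 22 of the 29. *Ctsd*, cathepsin D, read 494 in the CvP against 634 in the Epi, whereas *Ctsl*, cathepsin L, read 187 and 58.7 and *Psap*, the precursor of the saposins, read 193 and 94.9. The membrane protein *Lamp1* read 172 and 163. Macrophages are rich in lysosomal acid lipase, and the 9 macrophage genes summed to 163 RPKM in the CvP against 7.16 in the Epi. Of the 6 past the filter 5 were more than 3-fold higher in the CvP, beside 15.9% of all rows past it. All 5 passed only through the CvP. Most of that sum was *Lyz2*, lysozyme, at 132 and 0.43; *C1qb*, a complement subunit, read 6.08 and 0.57. *Cd68*, a lysosomal glycoprotein of macrophages, read 10.8 and 4.45, and *Csf1r*, the receptor of their growth factor, read 2.74 and 0.67. None of the 9 was at 0 in either library, and their part in the value of *Lipa* was not tested.

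Among 29 other lipase, cofactor and amylase genes, 19 had a row and 14 passed the filter. None was more than 3-fold higher in the Epi, beside 1.96% of all rows past the filter, and 3 (21.4%, beside 15.9%) were more than 3-fold higher in the CvP. Of these 3, 2 (*Lipc* and *Dagla*) passed the filter only through the CvP. The median log2 ratio was 0.49 beside 0.50, so counts and median were near those of all rows. *Lipc*, hepatic lipase, read 8.74 in the CvP against 0.02 in the Epi, where an estimated 1 read was found, a ratio of 437 (83.8 to 18573). *Ces1d*, a carboxylesterase that can hydrolyse triglycerides, read 460 and 96.9, the highest level of the list in both libraries. *Dagla*, which makes the endocannabinoid 2-arachidonoylglycerol, read 1.59 and 0.35.

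*Lipe*, hormone-sensitive lipase, read 7.26 in the CvP against 14.6 in the Epi, and *Lipg*, endothelial lipase, read 2.83 and 5.24. *Lpl*, lipoprotein lipase, read 1.08 and 0.77, and its maturation factor *Lmf1* read 5.92 and 2.26. The adipose triglyceride lipase *Pnpla2* read 14.5 and 12.4, its relative *Pnpla3* read 6.33 and 5.60, the monoglyceride lipase *Mgll* read 13.8 and 9.52, and *Daglb*, a further diacylglycerol lipase, read 22.2 and 8.90. The *Lipo1* row, an acid lipase of chromosome 19 outside the span, read 5.14 and 2.88. All but *Lipc*, *Ces1d* and *Dagla* of those past the filter were within 3-fold.

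The rows nearest to each member on log2(RPKM + 0.1) over both libraries were found for the 6 members past the filter, as a description over 2 libraries. Nearest to *Lipf* were *Krt36* (1.88 and 250), *Krt84* (2.88 and 396) and *Sbpl*, a spermine-binding protein-like gene (1.69 and 172), at distances of 0.33, 0.63 and 0.89. Nearest to *Amy1* were *Bpifb1*, *Sbpl* and 2310057J18Rik, at distances of 1.29 to 1.67. The nearest rows of *Lipf* and *Amy1* thus lay farther off than those of the other 4 members. Those nearest to *Lipf* were the hard keratins *Krt36* and *Krt84*, and *Sbpl* was among the 3 nearest of both *Lipf* and *Amy1*. *Lipm* was nearest to *Sdr16c5*, *Gm9790* and *Tmem40* and *Lipk* to *Aadacl2*, *Ttpal* and *Wnt7b*, all within 0.10. *Lipa* (*Gbp2*, *Siae* and *Slc25a42*) and *Liph* (*Cry1*, *Cdk7* and D19Ertd386e) had 3 rows each within 0.05.

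**Figure D5:**
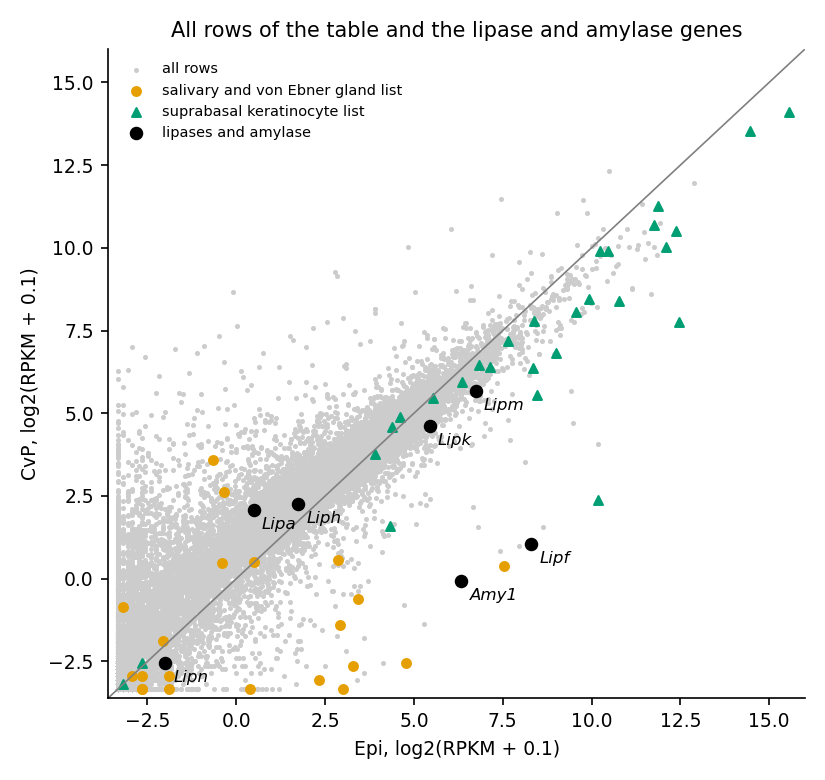
Epi (x axis) against CvP (y axis) on log2(RPKM + 0.1) for all 18498 rows (grey), the gland list (orange), the suprabasal keratinocyte list (green triangles) and the 7 genes (black); the line marks equal values. *Lipf* and *Amy1* lie in the sparse region to the lower right, *Lipm* and *Lipk* along the edge of the main cloud, and *Lipn* in the lower left corner.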

How the data were processed

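The authors pooled RNA per tissue, prepared TruSeq libraries, read 75 bases single-ended on a Genome Analyzer IIx and mapped them with Bowtie 0.12.7 to mm9 (NCBI37). The deposited RPKM values came from ERANGE on an exon model per gene, in 1 table with a listed length, a position and a CvP/Epi ratio per row. That ratio column of the authors was not used. ERANGE options and the handling of reads matching several places are not given in the sources used here. The other experiments of the study were not analysed here.

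Ratios of the deposited RPKM were taken with no pseudocount, and log2 ratios with a pseudocount of 0.1, which understates changes of low genes. Counts of rows and list medians used rows that reached an RPKM of 1 in one library or both, and differences above 3-fold. Mapped reads were estimated from the RPKM worth of 1 read in rows of 0.1 kb (within 0.1 read of a whole number for 96.4% of low CvP values and 97.4% of low Epi values in rows of at most 0.5 kb). Intervals are 95% exact: Clopper-Pearson for ratios, Poisson for levels. Transcripts, coordinates and shared windows came from GENCODE M1, promoters from RefSeq. Steps were tested on simulated data. Python 3.11.15, numpy 2.4.6, pandas 2.3.3 and scipy 1.17.1 were used.

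List genes were matched by gene identifier, symbol or older symbol. The members and lists were chosen with earlier results of these data known. The rule for named genes took the 7 members, the rows of their chromosomal spans, other listed lipases of RPKM at least 1, the 3 highest members of each further list in each library, the 10 rows of lowest CvP/Epi ratio among those with an Epi RPKM of at least 10, and the 3 rows nearest to each member past the filter. *Dcpp1*, *Muc19*, *Bhlha15*, *Car6*, *Dnase1*, *Lpo*, *Prss2*, *Pgc*, *Myh2*, *Adipoq*, *Plin1*, *Retn*, *Pnliprp2* and *Rnpc3* were named after their values were seen. A gene that the rule also took is not reported here. Other pseudocounts, filters, folds, scalings and lengths were tried.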

Additional observations from a re-analysis of the deposited data

How the results depend on the processing

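None of the ratios, counts and medians changed direction under the alternatives tried. Scaling moved values: divided by the median ratio, the CvP/Epi ratio became 0.00476 for *Lipf*, 0.364 for *Lipm*, 0.426 for *Lipk*, 1.09 for *Liph* and 2.42 for *Lipa*, and divided by the trimmed mean ratio 0.00475, 0.363, 0.425, 1.09 and 2.41. With each library rescaled to one sum it was 0.576 for *Lipm*, 0.674 for *Lipk* and 1.72 for *Liph*. A pseudocount of 1 gave 0.00941 for *Lipf*, 0.0227 for *Amy1* and 2.23 for *Lipa*.

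The count of members more than 3-fold higher in the Epi was 2 under every alternative that kept the 3-fold cut. At a fold above 2 the count was 3, and at folds above 5 and 10 it was 2. Of all rows past the filter, 3.75% were higher in the Epi at a fold above 2, 1.12% above 5 and 0.669% above 10. In the CvP these shares were 28.2%, 10.3% and 7.09%. The 1 member more than 3-fold higher in the CvP, *Lipa*, became 0 at folds above 5 and 10, with an RPKM of at least 10, after division by the median ratio and with a pseudocount of 1. Of all rows past the filter, division by the median ratio put 3.04% more than 3-fold higher in the Epi and 12.4% in the CvP, and rescaling to one sum 1.51% and 20.3%.

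The median log2 ratio of the gland list was -2.54 with a pseudocount of 1 and -1.05 with no filter. That of the suprabasal list was -0.83 with no filter, -1.39 minus the median log2 ratio and -0.72 rescaled, and that of the barrier lipid enzymes -0.60, -1.05 and -0.39, and -0.75 with an RPKM of at least 10. The basal list was at 0.77 with an RPKM of at least 10, 0.25 minus the median and 0.92 rescaled. The lysosomal list was at 0.98 with a pseudocount of 1, 0.80 with an RPKM of at least 10, 0.65 minus the median and 1.31 rescaled. The other lipases were at 0.22 with an RPKM of at least 10 and 0.094 minus the median.

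No paired analysis was possible because only 1 library stood for either tissue, and leaving out a replicate was not possible either. The cause of these shifts was not tested. Depth limits *Lipn*, with an estimated 3 and 6 reads, and the CvP values of *Lipf* and *Amy1*, with 75 and 44.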

Other observations

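Among the 4327 rows with an Epi RPKM of at least 10, the 10 with the lowest CvP/Epi ratio held *Lipf* and products of glands, *Bpifa2* and *Bpifb1*, beside cornifying-cell genes. *Tchhl1*, a trichohyalin-like gene, had the lowest ratio, at 0.02 RPKM in the CvP (an estimated 1 read) and 10.4 in the Epi, followed by *Bpifa2*. *Krtap13*, a keratin-associated protein gene of hair, read 0.04 and 12.0. The remaining rows of the 10 were *Tchh*, *Krt84*, *Krt36*, 2310034C09Rik (0.07 and 17.4) and 2310057J18Rik (0.29 and 38.5). *Amy1* was number 12, after *Sbpl*, and *Lyg1*, a goose-type lysozyme-like gene, was number 13, at 16.9 in the CvP against 1167 in the Epi; *Sbpl* and *Lyg1* were named here after their places were seen.

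*Pnliprp2*, a pancreatic lipase-related gene, read 0.61 in the CvP (an estimated 27 reads) and 0 in the Epi.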
